A study of Mus musculus with 18 samples.

Results

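The genes of fatty acid synthesis, triglyceride handling and beta oxidation were followed as a set of 50, taken by name out of 46983 gene names in the deposited count tables. Of these, 14 belong to synthesis, 14 to triglyceride handling and 22 to beta oxidation, and all 50 were listed in both tables. The series title refers to obese mice, and every mouse was a male C57BL/6J carrying the label HFD. Libraries came from visceral adipose tissue, titled mAT-MSC VAT, and from bone marrow, titled mBMSC. In each tissue, 5 libraries carried the label HFD + Gln and glutamine as treatment, called glutamine libraries here, and 4 carried HFD alone with no treatment, called HFD libraries. The glutamine libraries also carry the entry Glutamine, and the HFD libraries the entry Ctrl, in the label for genotype. Each title holds a pair of numbers that the labels do not explain, and the labels give no age, dose or route. Nothing states that libraries are separate animals, so p-values measure the spread between these libraries.

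Fatty acids are built in the cytosol from citrate, which ATP citrate lyase (Acly) splits into acetyl-CoA, the substrate of acetyl-CoA carboxylase (Acaca) and fatty acid synthase (Fasn). They are stored after esterification to glycerol as triglyceride in lipid droplets, and freed again by lipases. For beta oxidation, the carnitine shuttle (Cpt1a, Slc25a20, Cpt2) carries them into mitochondria, where acyl-CoA dehydrogenases, the trifunctional protein (Hadha and Hadhb) and thiolase shorten them step by step. Adipose tissue is the main site of storage, and stromal cells of fat and marrow can give rise to adipocytes.

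The adipose libraries held 35871168 to 59529238 counts and 11361 to 14469 genes at 100 counts or more. The marrow libraries held 13970788 to 37984603 counts and 1755 to 7323 such genes. The 10 adipose progenitor markers summed to 15483 to 19869 counts per 1000000 counts of the library (CPM) in adipose glutamine libraries and to 16559 to 22243 CPM in adipose HFD libraries, and all 10 reached 100 counts in every adipose library. In marrow the 7 marrow stroma markers summed to 2205 to 6715 CPM with glutamine and to 3520.3 to 12949.7 CPM with HFD, and the 8 neutrophil markers summed to 2699 to 25599 CPM with glutamine and to 4359.6 to 54234 CPM with HFD. Neutrophil markers summed to 49.6 to 152 CPM in adipose glutamine libraries and to 67.1 to 285 CPM in adipose HFD libraries. The 10 mature adipocyte markers summed to 716 to 1868 CPM in adipose glutamine libraries and 972 to 1848 CPM in adipose HFD libraries, and to 6.76 to 706 CPM in marrow glutamine libraries and 67.3 to 685 CPM in marrow HFD libraries. In marrow 6 of the 10 (Plin1, Cidec, Lep, Retn, Adrb3 and Pck1) reached 100 counts in no library. Plin1, which coats the adipocyte's droplet, had 4.17 to 25.2 CPM in adipose libraries and at most 0.129 CPM in marrow libraries. Adipoq, made by adipocytes and by marrow stroma, had 9.85 to 58.7 CPM in adipose and 1.37 to 681 CPM in marrow. The other 3 were high in 1 or 2 marrow libraries: Slc2a4 had 107 and 102 CPM in glutamine libraries 4_6 and 18_20, Fabp4 559 CPM in the unnumbered glutamine library and Cfd 295 CPM in HFD library 23_28. In adipose 1 library stood apart in its make-up: the 6 mesothelial markers summed to 2.77 CPM in glutamine library 25_27, against 437 to 617 CPM in the other 4 glutamine libraries and 233 to 511 CPM in HFD libraries. Without that library 0 genes of the set were called for glutamine in adipose, as with it. In bulk RNA, fewer cells of a type and less RNA per cell cannot be told apart.

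The sequences upstream of 5 genes are shown. Me1, Plin2 and Cpt2 were those called for a difference of the glutamine effect between tissues, given below. They are among 8 genes of the set that reached 100 counts in marrow libraries of the glutamine arm only. Among genes at 100 counts in all adipose libraries, 16.7% of the 42 of the set and 22.5% of all 8790 did so. Hadha and Hadhb, neighbours that share an upstream region, differed in marrow, where Hadha reached 100 counts in 4 of 9 libraries and Hadhb in 0. Of all 8790 genes at 100 counts in all adipose libraries, 14.2% likewise reached 100 counts in no marrow library. Sequences are RefSeq's for the build GRCm38.p6, 5′ to 3′ on the gene's strand, ending before the first annotated base of the gene in RefSeq and in GENCODE M21. Capitals mark 4 motifs on either strand, which are the CCAAT box by its letters CCAAT, the GC box by GGGCGG, the E-box by CACGTG and the nuclear receptor half-site by AGGTCA. For Me1 (gene at chr9:86581371-86695953, minus strand) the 211 bases shown are chr9:86695954-86696164. For Plin2 (chr4:86648386-86670060, minus strand) they are the 249 bases chr4:86670061-86670309. For Cpt2 (chr4:107903981-107923610, minus strand) they are the 229 bases chr4:107923611-107923839. Between Hadha (chr5:30118304-30155162, minus strand) and Hadhb (chr5:30155248-30184593, plus strand), which point away from each other, lie the 85 bases chr5:30155163-30155247, shown on the plus strand.
Me1: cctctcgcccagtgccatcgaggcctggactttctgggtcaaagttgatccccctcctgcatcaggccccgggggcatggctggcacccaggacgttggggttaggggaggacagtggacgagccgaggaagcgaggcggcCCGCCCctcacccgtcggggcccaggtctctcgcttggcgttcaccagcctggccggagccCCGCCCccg
Plin2: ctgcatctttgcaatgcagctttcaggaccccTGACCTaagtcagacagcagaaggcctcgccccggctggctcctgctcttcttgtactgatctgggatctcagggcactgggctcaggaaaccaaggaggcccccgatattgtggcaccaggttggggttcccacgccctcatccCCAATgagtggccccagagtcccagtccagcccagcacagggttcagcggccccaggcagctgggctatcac
Cpt2: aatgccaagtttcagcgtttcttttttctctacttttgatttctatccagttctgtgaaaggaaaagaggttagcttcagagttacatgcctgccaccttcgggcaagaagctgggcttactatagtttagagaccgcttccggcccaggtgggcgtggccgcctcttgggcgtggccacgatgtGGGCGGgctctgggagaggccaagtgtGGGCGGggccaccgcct
Hadha-Hadhb: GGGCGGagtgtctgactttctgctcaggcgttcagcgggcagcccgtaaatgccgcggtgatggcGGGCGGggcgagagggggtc

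The GC box letters occurred 2 times upstream of Me1, 2 times upstream of Cpt2 and 2 times between Hadha and Hadhb, and not in the Plin2 window, which held 1 CCAAT and 1 AGGTCA on the other strand. GGGCGG occurs in 31.4% of all 32851 RefSeq promoter windows cut to the length shown for Me1, in 32.1% at the length for Cpt2 and in 22.8% at the length of the interval between Hadha and Hadhb. At the Plin2 length CCAAT occurs in 33.8% and AGGTCA in 14.0% of windows. CACGTG was in none of the 4 sequences, and occurs in 2.81% to 6.01% of windows at these lengths. The matches marked in these sequences do not overlap each other. None of the motifs was shared by all 3 of Me1, Plin2 and Cpt2.

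In adipose libraries all 3 parts of the pathway were measured well. Of 50 genes, 42 reached 100 counts in all 9 adipose libraries. Since 1 tag is counted near the 3′ end of each transcript, CPM levels are per transcript and need no length correction. The 14 triglyceride genes summed to 1401 to 2361 CPM in glutamine libraries and to 1060.4 to 1957 CPM in HFD libraries, and Mgll alone, which cleaves monoglyceride, gave 31.3% to 68.9% of that sum. The 22 oxidation genes summed to 1222 to 1539 CPM with glutamine and to 1143 to 1446 CPM with HFD. The 14 synthesis genes summed to 916 to 1285 CPM with glutamine and to 953 to 1199.7 CPM with HFD. The sums of both arms overlapped in each of the 3 parts.

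**Figure D1:**
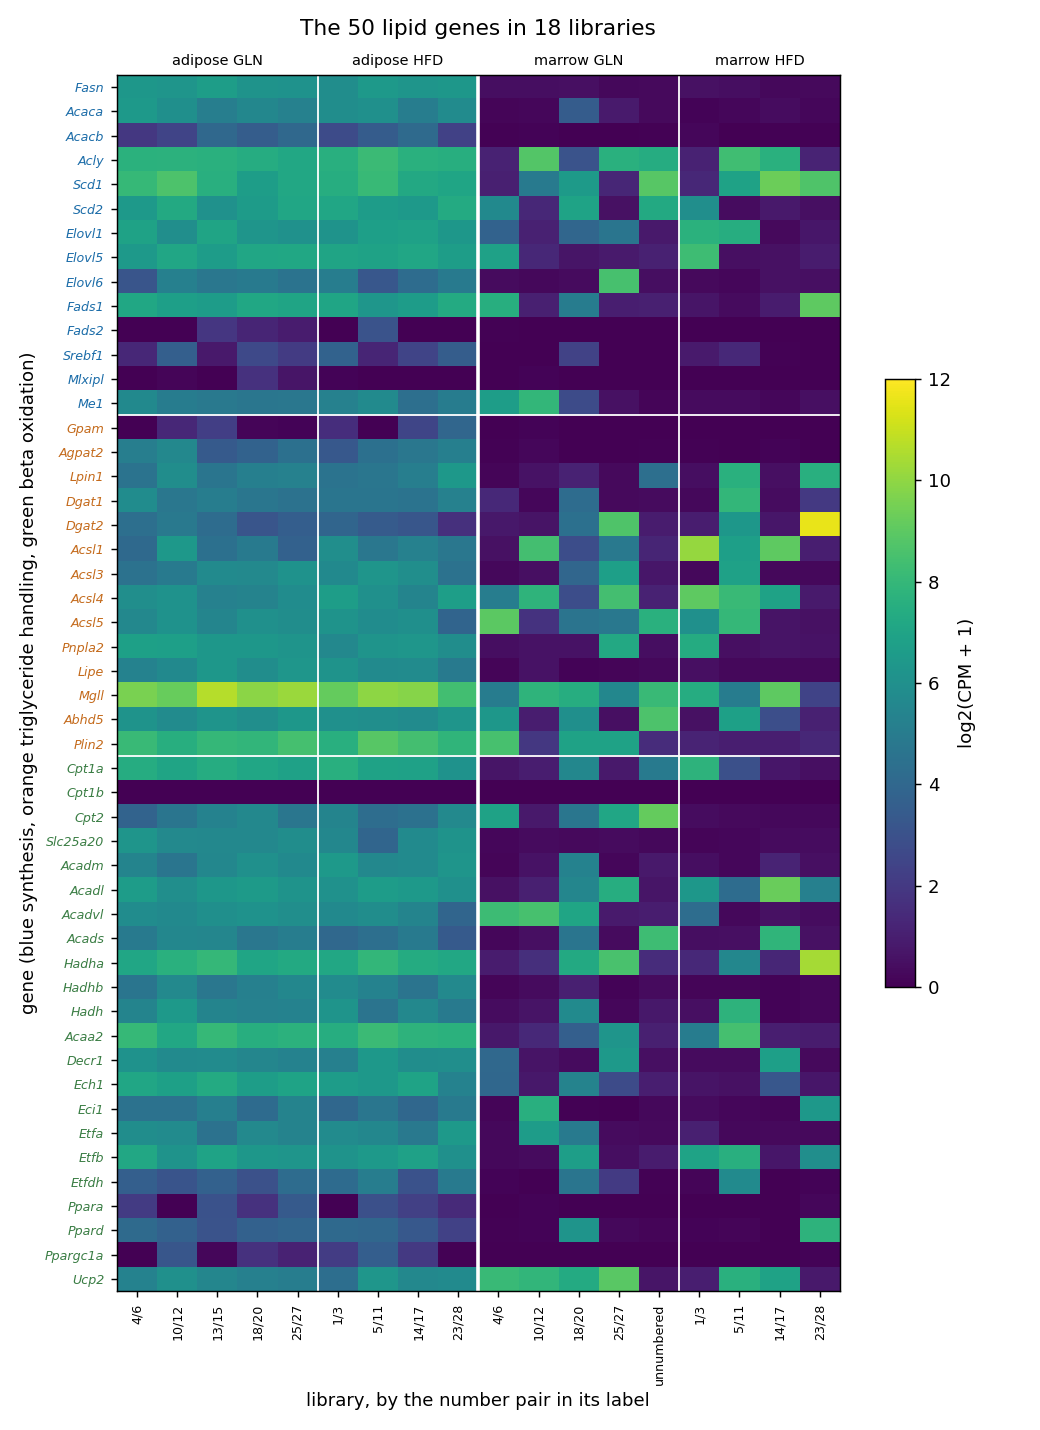
Levels of the 50 genes (rows, by role) in the 18 libraries (columns, by group and number pair), as log2(CPM + 1). Adipose columns look alike across both arms, while in marrow most genes are near 0 in some libraries and high in others, with no gene at 100 counts or more in all 9 marrow libraries.

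No gene of fatty acid synthesis passed the test between glutamine and HFD adipose libraries. Fasn, which assembles palmitate, had 80.0, 74.3, 100.3, 70.6 and 69.5 CPM in glutamine libraries, against 58.1, 87.3, 75.7 and 79.6 CPM in HFD libraries. The arms overlapped fully, and the log2 change was 0.05 ± 0.22 (SE). Acly had 204, 207, 196, 174 and 147 CPM with glutamine, against 187, 293, 193 and 185 CPM with HFD. The single high value was the HFD library 5_11, and the log2 change was -0.23 ± 0.20, the smallest unadjusted p of the synthesis genes at 0.27. Scd1, the desaturase that makes oleate, averaged 218 ± 115 CPM with glutamine and 182 ± 60.9 CPM with HFD (SD, n = 5 and 4). Acaca averaged 53.6 ± 22.6 CPM with glutamine and 52.8 ± 13.4 CPM with HFD. The desaturase Scd2 averaged 109 ± 37.3 CPM with glutamine and 121 ± 32.0 CPM with HFD. The elongase Elovl6 averaged 24.4 ± 10.4 CPM with glutamine and 21.9 ± 11.0 CPM with HFD, and the desaturase Fads1 123 ± 19.3 CPM with glutamine and 117 ± 35.0 CPM with HFD. Me1, malic enzyme, which makes NADPH for synthesis, averaged 32.3 ± 10.4 CPM with glutamine and 35.6 ± 13.6 CPM with HFD.

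Srebf1, the transcription factor that drives lipogenic genes, was low and uneven. It had 1.50, 11.5, 0.761, 5.28 and 3.30 CPM in adipose glutamine libraries, against 12.5, 1.34, 4.43 and 10.7 CPM in adipose HFD libraries. Both arms spanned nearly the same range, and the log2 change of -0.73 ± 1.03 left the interval of 2 standard errors at -2.78 to 1.32. Across the 9 adipose libraries, 11 synthesis genes were set against Srebf1 on TMM-scaled log2 CPM. Srebf1 itself reached 100 counts in only 6 of these libraries. Scd2 had a Pearson r of 0.80 (exact permutation p = 0.0135, adjusted over the 11 relations 0.0815) and a Spearman rho of 0.72 (p = 0.0369, adjusted 0.101, exact permutation). Elovl6 had r of 0.69 (exact permutation p = 0.044, adjusted 0.121) and rho of 0.78 (exact permutation p = 0.0172, adjusted 0.0935). Fasn had r of -0.74 (exact permutation p = 0.0222, adjusted 0.0815) and rho of -0.75 (exact permutation p = 0.0255, adjusted 0.0935), and Elovl1 r of -0.78 (exact permutation p = 0.0213, adjusted 0.0815) and rho of -0.77 (exact permutation p = 0.0214, adjusted 0.0935). The remaining relations had r from -0.43 (Acacb) to 0.49 (Fads1), with Acly at -0.32, Me1 at -0.22, Scd1 at -0.13 and Acaca at 0.10. No relation passed the correction. Without the 2 libraries farthest from the median of Srebf1, r was 0.69 for Scd2, 0.91 for Elovl6, -0.45 for Fasn and -0.70 for Elovl1. Fads2, the delta-6 desaturase, was listed at 0 in 2 of 5 glutamine and 3 of 4 HFD libraries and reached at most 7.42 CPM, and Mlxipl, which encodes the glucose-responsive factor ChREBP, reached at most 2.29 CPM and was not tested.

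Among the triglyceride genes the estimates of the lipases Pnpla2, Mgll and Lipe were positive with glutamine, and none passed the test. Pnpla2, adipose triglyceride lipase, had 110, 108, 80.0, 81.4 and 72.5 CPM in glutamine libraries, against 47.4, 74.2, 78.5 and 58.4 CPM in HFD libraries. Of the 5 glutamine values 4 lay above every HFD value, and the log2 change was 0.47 ± 0.24 (unadjusted p = 0.0688, edgeR quasi-likelihood test). Mgll averaged 1021 ± 401 CPM with glutamine and 702 ± 306 CPM with HFD, a log2 change of 0.52 ± 0.33. Lipe, hormone-sensitive lipase, averaged 61.8 ± 18.3 CPM with glutamine and 51.8 ± 17.9 CPM with HFD. Acsl4, which activates long polyunsaturated fatty acids to acyl-CoA, had 60.5, 68.0, 37.5, 40.2 and 56.0 CPM with glutamine, against 102, 64.1, 41.8 and 103 CPM with HFD. Its 2 highest values were both HFD libraries, and the log2 change was -0.59 ± 0.31 (unadjusted p = 0.0732, edgeR). Plin2, a droplet coat protein found in many cell types, averaged 261 ± 62.5 CPM with glutamine and 308 ± 128 CPM with HFD. Of the last enzymes of triglyceride synthesis, Dgat1 averaged 32.3 ± 13.7 CPM with glutamine and 27.2 ± 6.91 CPM with HFD, and Dgat2 17.0 ± 7.90 CPM with glutamine and 8.59 ± 4.94 CPM with HFD. The log2 change of Dgat2, 0.97 ± 0.64, was the largest upward estimate of the triglyceride genes and did not pass the test. Gpam, the first acyltransferase of glycerolipid synthesis, was listed at 0 in 1 glutamine and 1 HFD library and ranged up to 3.72 CPM with glutamine and 14.4 CPM with HFD, with an estimate of -2.27 ± 1.85. Acsl1 averaged 32.5 ± 29.7 CPM with glutamine and 37.3 ± 15.7 CPM with HFD.

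Among the oxidation genes the smallest p belonged to Acads, the dehydrogenase of short chains. It had 29.1, 46.7, 43.9, 26.4 and 32.7 CPM in adipose glutamine libraries, against 15.7, 20.0, 30.1 and 9.67 CPM in adipose HFD libraries. Of the 4 HFD values 3 lay below every glutamine value, and the log2 change was 0.91 ± 0.39 with an unadjusted p of 0.0339 and an adjusted p of 0.9998 (edgeR). Ech1, an isomerase for unsaturated chains, had 138, 112, 161, 101 and 122 CPM with glutamine, against 98.9, 83.7, 123 and 38.8 CPM with HFD, a log2 change of 0.55 ± 0.29 (unadjusted p = 0.0768, edgeR). Acadvl, the dehydrogenase of very long chains, averaged 59.7 ± 6.66 CPM with glutamine and 41.4 ± 19.4 CPM with HFD, where the library 23_28 held 14.2 CPM. Acadm, the medium-chain dehydrogenase, averaged 45.5 ± 14.3 CPM with glutamine and 65.6 ± 18.9 CPM with HFD, and Etfdh, which passes electrons on to ubiquinone, 11.3 ± 4.50 CPM with glutamine and 21.7 ± 11.7 CPM with HFD. The gatekeeper of mitochondrial entry, Cpt1a, averaged 144 ± 25.7 CPM with glutamine and 123 ± 50.2 CPM with HFD, and Cpt2 29.7 ± 13.4 CPM with glutamine and 32.7 ± 15.0 CPM with HFD. Hadha averaged 175 ± 50.5 CPM with glutamine and 175 ± 50.2 CPM with HFD, and Ucp2, a carrier of the inner membrane, 43.2 ± 12.1 CPM with glutamine and 49.3 ± 23.8 CPM with HFD. The regulators were low: the fatty acid receptor Ppara averaged 4.44 ± 3.86 CPM with glutamine and 3.02 ± 2.86 CPM with HFD, and the coactivator Ppargc1a 2.41 ± 3.43 CPM with glutamine and 4.36 ± 4.68 CPM with HFD. Cpt1b, the muscle form of the shuttle enzyme, was listed at 0 in all 18 libraries, where a count of 0 allows at most 0.0504 to 0.215 CPM (3 counts per library). Its gene overlaps an annotated gene on the same strand, Gm44502, and the part of that overlap in the 0 was not tested.

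**Figure D2:**
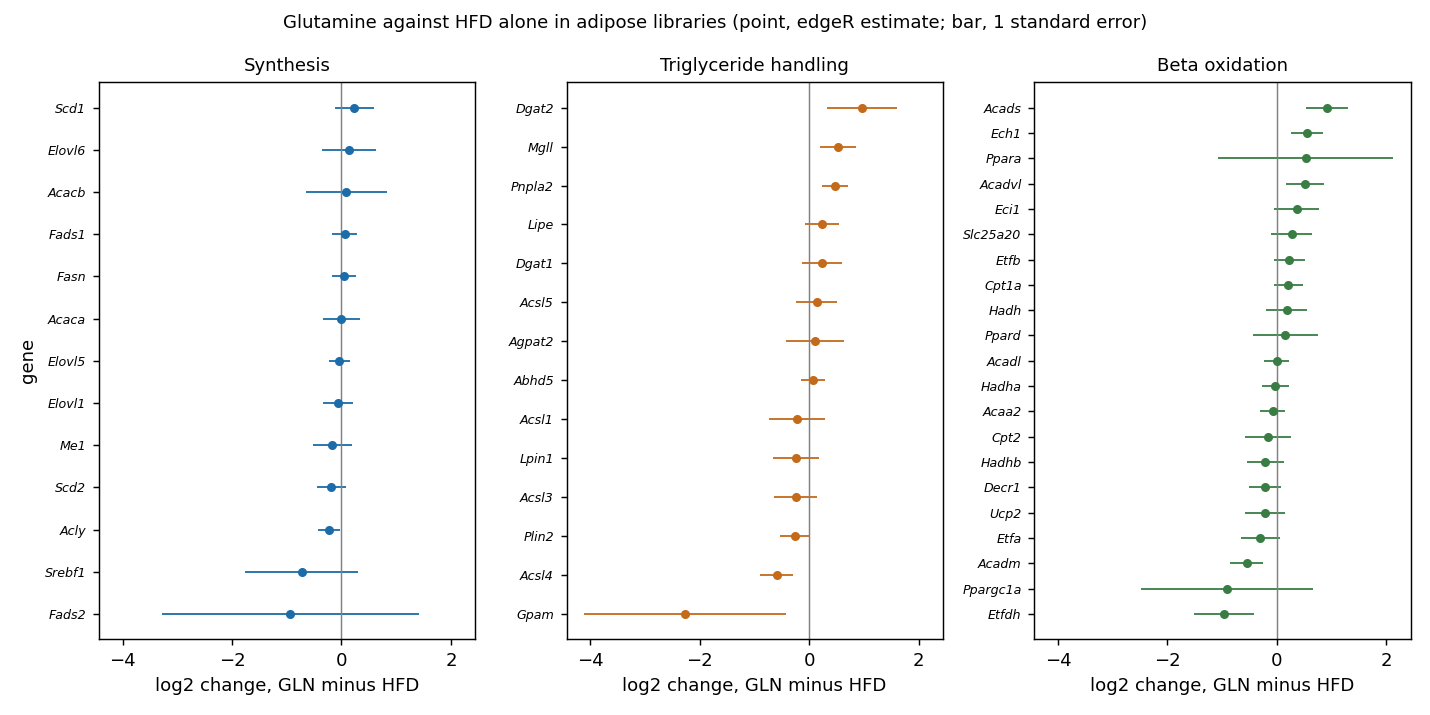
Log2 change with glutamine against HFD alone in adipose libraries for the 48 genes tested, by role (point, edgeR estimate; bar, 1 standard error; 5 against 4 libraries). Most points lie within 1 of 0, the widest bars belong to genes of a few CPM (Fads2, Gpam, Ppara, Ppargc1a), and no gene passed the adjusted threshold.

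In all, 48 of the 50 genes were tested in adipose, and 0 were called at an adjusted p under 0.05 (edgeR), where 0.0% of 15114 genes were called. At an unadjusted p under 0.05 there was 1, Acads, of 48, against 624 of 15114 genes. DESeq2 called 0 of the 48 genes, where it called 0.208% of genes (31 in all), and limma-voom 0. The median log2 change was -0.04 over 13 synthesis genes, 0.09 over 14 triglyceride genes and -0.01 over 21 oxidation genes, beside -0.02 over all genes tested. No gene of the set had arms that did not overlap, where 1.66% of all genes tested did. For 24 of the 48 genes the interval of 2 standard errors stayed within a 2-fold change in both directions, 9 of 13 in synthesis, 6 of 14 in triglyceride handling and 9 of 21 in oxidation. Fasn, Acly, Acaca, Scd1, Scd2, Fads1, Pnpla2, Lipe, Plin2, Cpt1a and Hadha were among these. Among marker lists, all 10 macrophage markers had a negative estimate with glutamine (sum 256 to 705 CPM with glutamine, 534 to 1584 CPM with HFD). None of the 10 was at 0 in every library of an arm, and Fcgr1 was at 0 in glutamine library 13_15. A positive estimate was found for 7 of 8 endothelial markers (796 to 1738 CPM with glutamine, 538 to 1269 CPM with HFD, none at 0). The same held for 6 of 7 mural markers (479 to 1114 CPM with glutamine, 295 to 736 CPM with HFD, none at 0). In each of these lists 0 markers were called. Their part in the estimates above was not tested.

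In marrow, the same genes were mostly either near 0 or high, library by library. Of 450 values (50 genes in 9 libraries), 138 were at 100 counts or more and 103 at 1000 counts or more, only 25 lay from 30 to 99 counts, and 287 were below 30 counts, 55 of them at 0. In adipose, 410 of 450 values were at 100 counts or more. No gene of the set reached 100 counts in all 9 marrow libraries. Mgll came closest with 8 of 9, followed by Acsl4 with 7 and by Acly, Scd1, Acsl1, Acsl5, Acadl and Ucp2 with 6 each. The number of the 50 genes at 100 counts or more was 15, 10, 32, 18 and 10 in the marrow glutamine libraries, against 13, 20, 11 and 9 in the marrow HFD libraries. The 32 belong to glutamine library 18_20, which also had the most genes in all. The gene that led a role changed between libraries: in marrow, 6 different genes held the largest share of the synthesis sum over the 9 libraries, against 2, Scd1 and Acly, in adipose. Elovl6, which extends palmitate, gave 61.4% of the synthesis sum in glutamine library 25_27 with 363 CPM and stayed at or under 0.464 CPM in the other 8 marrow libraries.

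Genes outside the set were split in the same way. Of 8790 genes at 100 counts or more in all 9 adipose libraries, 14.2% reached 100 counts in no marrow library and the median gene in 3, and of the 42 such genes of the set 14.3% (6 genes) did so in none and the median gene in 3. The share of the set is near that of all genes and is no result about lipid genes. Below 100 counts, marrow values were larger for genes with a larger adipose total. Over genes with at least 10000 adipose counts and under 100 counts in a marrow library, the median was 251 to 529 marrow counts per 1000000 adipose counts across the 9 marrow libraries, and 238 to 594 for genes of the set, with a Spearman rho between marrow count and adipose total of 0.45 to 0.73 over 11 to 32 genes. These genes share library and depth. Where these low counts come from was not tested, and a marrow level under about 100 counts is given here as a number only.

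**Figure D3:**
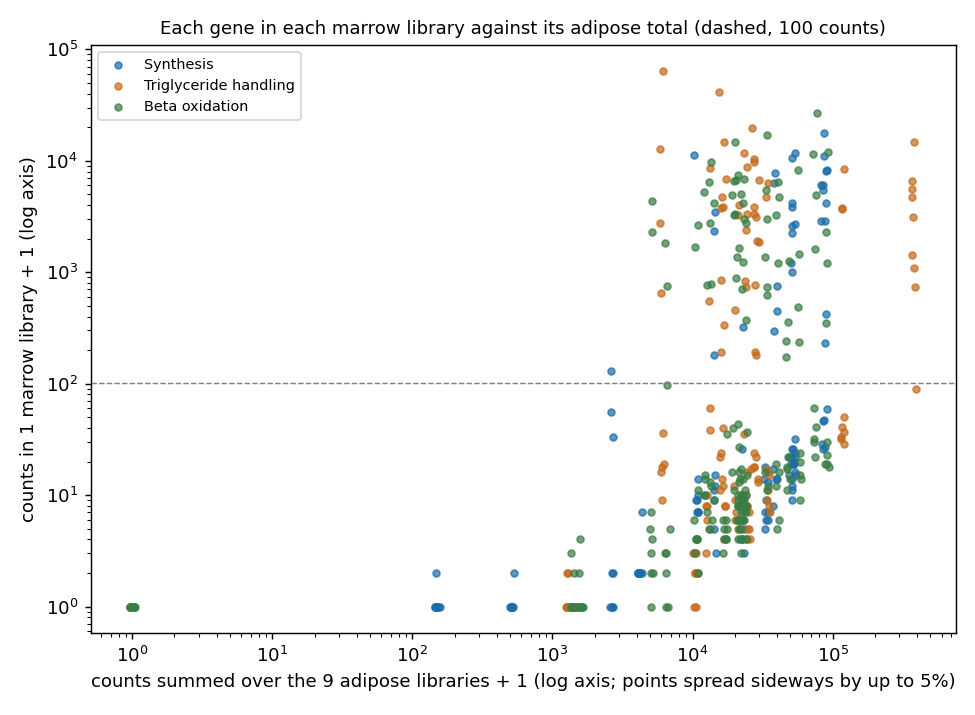
Counts of each of the 50 genes in each of the 9 marrow libraries (vertical, log axis, 1 added) against the gene's counts summed over the 9 adipose libraries (horizontal, log axis, 1 added), coloured by role. Below the dashed line at 100 counts the values are larger for genes with larger adipose totals, and 138 of 450 values lie on or above the line.

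The 12 genes that never reached 100 counts in a marrow library were Fasn, Acacb, Fads2 and Mlxipl of synthesis, Gpam, Agpat2 and Lipe of triglyceride handling, and Cpt1b, Slc25a20, Hadhb, Ppara and Ppargc1a of oxidation. Fasn had 4 to 17 counts in each marrow library, 76 in all, beside 33393 in adipose. Lipe had 3 to 16 counts in each, and Slc25a20, the carnitine-acylcarnitine carrier, 3 to 9. Agpat2, the second acyltransferase of triglyceride synthesis, had 0 to 2 counts in each, 10 in all, beside 10496 in adipose. Of the chain from citrate to palmitate, Acly reached 100 counts in 6 marrow libraries, Acaca in 1 with 10.4 CPM, and Fasn in none. Likewise Cpt1a reached 100 counts in 4 marrow libraries and Cpt2 in 4, and the carrier between them in none.

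Hadha and Hadhb, the 2 subunits of the mitochondrial trifunctional protein, were both present in every adipose library. Hadha had 131 to 253 CPM and Hadhb 23.2 to 53.8 CPM there. In marrow, Hadha had 0.904, 2.08, 157, 374 and 1.84 CPM with glutamine, against 1.58, 46.2, 1.43 and 1319.6 CPM with HFD. It reached 100 counts in 4 of 9 libraries and 26575 counts in HFD library 23_28. Hadhb held at most 34 counts, 1.09 CPM, in any marrow library, and 3 counts in the HFD library where Hadha was highest. The 85 bases between their starts in GENCODE M21 are printed above, and their part in this difference was not tested.

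Between glutamine and HFD marrow libraries no gene of the set passed the test. Of 50 genes, 31 were tested and 0 called (edgeR), where 0.132% of 6041 genes were called, all 8 of them lower with glutamine. At an unadjusted p under 0.05 there were 3 of 31, Dgat2, Cpt2 and Me1, against 1127 of 6041 genes. limma-voom called 0 of the 31, where it called 0.0166% of genes, DESeq2 5 (3 higher and 2 lower, where it called 20.8% of the genes it gave an adjusted p), and 1 fit of all 18 libraries 6, all higher, where it called 25.8% of genes. The median log2 change was -1.61 over 7 synthesis genes, -0.74 over 11 triglyceride genes and -1.47 over 13 oxidation genes, beside -0.22 over all genes tested, with a median standard error of 2.28 over the 31 genes. No gene had an interval of 2 standard errors within a 2-fold change.

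Cpt2, the inner-membrane enzyme that frees fatty acids from carnitine, had 119, 0.787, 24.9, 135 and 573 CPM in marrow glutamine libraries, against 0.316, 0.230, 0.179 and 0.199 CPM in marrow HFD libraries. It reached 100 counts in 4 of 5 glutamine and in 0 of 4 HFD libraries, and the arms did not overlap. The log2 change was 9.57 ± 3.33 (adjusted p = 0.197, edgeR). Plin2 had 363, 2.86, 120, 121 and 1.90 CPM with glutamine, against 1.29, 1.04, 1.00 and 1.54 CPM with HFD. It reached 100 counts in 3 of 5 glutamine and 0 of 4 HFD libraries, the arms did not overlap, and the log2 change was 5.65 ± 3.00 (adjusted p = 0.298, edgeR). Of the 31 genes tested these 2 were the ones whose arms did not overlap, both higher with glutamine, where 3.77% of all genes tested had arms that did not overlap, 3.53% higher and 0.248% lower. Me1 had 101, 248, 5.74, 0.455 and 0.118 CPM with glutamine, against 0.290, 0.288, 0.143 and 0.397 CPM with HFD. It reached 100 counts in 3 of 5 glutamine and 0 of 4 HFD libraries, the lowest value was a glutamine library, and the log2 change was 7.20 ± 3.18 (adjusted p = 0.201, edgeR). The libraries with high values differed between the 3 genes, and glutamine library 4_6 was above 100 CPM for all 3.

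Dgat2, which makes most of the triglyceride stored in fat, had a negative estimate. Its levels were 0.732, 0.573, 20.8, 411 and 0.889 CPM in marrow glutamine libraries, against 0.921, 80.0, 0.643 and 3148 CPM in marrow HFD libraries. The arms overlapped, 2 libraries of each were above 20 CPM, and the estimate of -4.69 ± 1.55 (adjusted p = 0.197, edgeR) rested on HFD library 23_28, without which it was 1.52. In that library Dgat2 made up 93.9% of the triglyceride sum. Hadha had an estimate of -3.24 ± 1.83, and 2.41 without the same library. Fads1, the delta-5 desaturase, had 180, 1.07, 31.8, 1.01 and 1.07 CPM with glutamine, against 0.606, 0.288, 0.893 and 521 CPM with HFD, with an estimate of -3.20 ± 2.26, and 5.40 without that library. HFD library 23_28 had 1755 genes at 100 counts or more, the fewest of all, and the highest neutrophil sum, 54234 CPM. The part of either in these estimates was not tested.

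**Figure D4:**
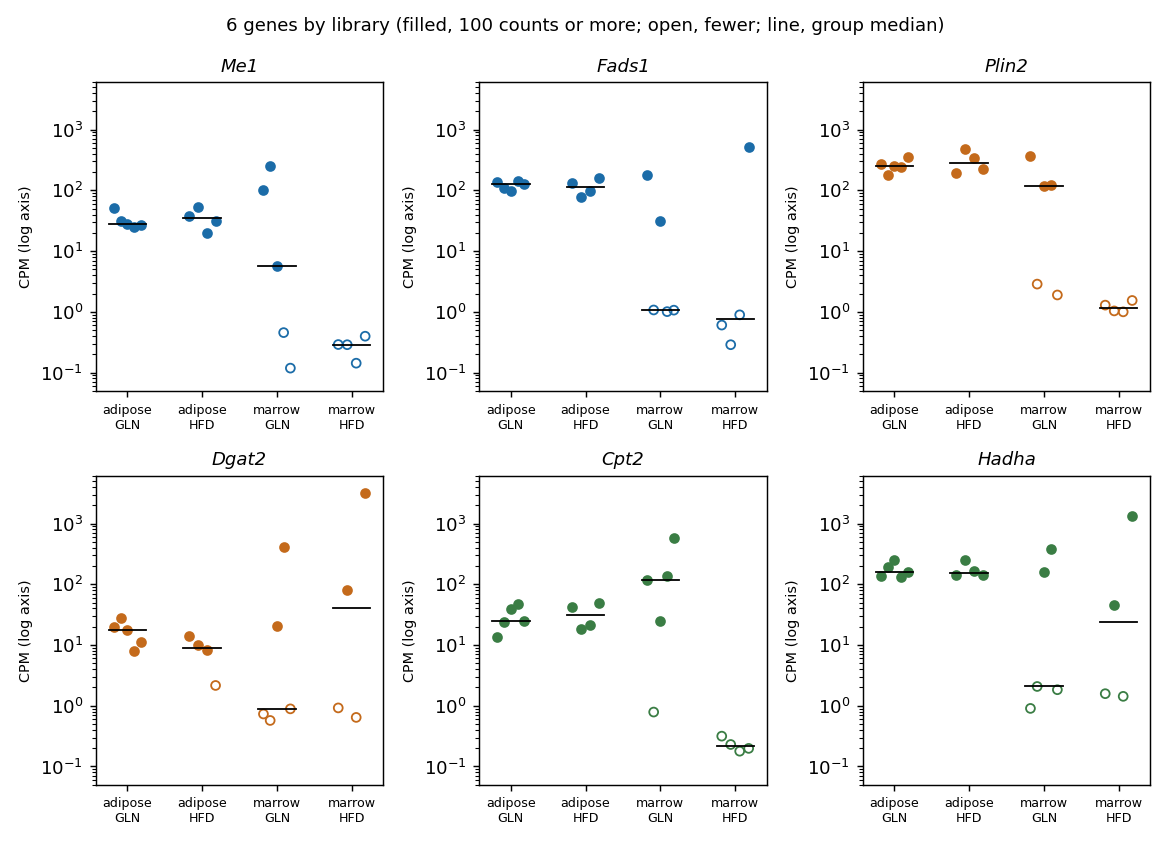
Level of 6 genes in each library, by group (points, libraries; filled at 100 counts or more, open below; line, group median; log axis in CPM). Adipose groups of both arms lie close together, Cpt2 and Plin2 have no filled marrow HFD point, and the highest Dgat2, Fads1 and Hadha points in marrow are all the HFD library 23_28.

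Counting values at 100 counts or more, 34.0% of 250 values in marrow glutamine libraries and 26.5% of 200 in marrow HFD libraries reached that level. Among genes at 100 counts in all adipose libraries the shares were 39.0% with glutamine and 30.4% with HFD for the 42 of the set, and 37.0% with glutamine and 29.6% with HFD for all 8790, so the gap between arms was near that of all genes. By role the shares were 31.4% with glutamine and 17.9% with HFD in synthesis, 41.4% with glutamine and 35.7% with HFD in triglyceride handling, and 30.9% with glutamine and 26.1% with HFD in oxidation. Of the 50 genes, 8 reached it in glutamine libraries only (Acaca, Elovl6, Srebf1, Me1, Plin2, Cpt2, Acadm and Etfa) and 0 in HFD libraries only. Among genes at 100 counts in all adipose libraries the comparable shares were 7 of 42 of the set (16.7%) and 22.5% of all 8790, and 0 of 42 and 6.04% for HFD only. Without glutamine library 18_20, left out after its gene number was seen, both arms stood at 26.5%. By role the shares were then 25.0% with glutamine and 17.9% with HFD in synthesis, 35.7% in both arms in triglyceride handling, and 21.6% with glutamine and 26.1% with HFD in oxidation, where the direction turned. Without it, 5 genes reached 100 counts in glutamine libraries only (Elovl6, Me1, Plin2, Cpt2 and Etfa) and 5 in HFD libraries only (Dgat1, Hadh, Etfb, Etfdh and Ppard). Among genes at 100 counts in all adipose libraries, 11.9% of the 42 of the set were then glutamine only and 11.9% HFD only. For all 8790 the shares were 14.4% and 15.3%, with 29.5% of glutamine and 29.6% of HFD values at 100 counts or more.

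The edgeR interaction test called 3 genes for a difference of the glutamine effect between tissues, all 3 with the more positive estimate in marrow. Of 48 genes tested, 0 had a higher and 3 a lower effect in adipose than in marrow, where 11.9% of 15203 genes were called, 4.05% higher and 7.87% lower (edgeR interaction). The share of the set, 3 of 48, was below that of all genes. The difference of log2 changes, adipose minus marrow, was -9.92 ± 2.09 for Cpt2, -6.62 ± 1.81 for Plin2 and -7.76 ± 2.24 for Me1. Each had an adjusted p of 0.0432 (edgeR interaction), which was also the smallest adjusted p of all 15203 genes. These errors come from 1 fit of all 18 libraries, with 1 spread per gene for both tissues. Each is smaller than the error of the marrow change alone, given above, so the spread within marrow is not fully in it. In adipose the log2 changes of these genes were -0.16, -0.26 and -0.16, and in marrow 9.57, 5.65 and 7.20, in the order Cpt2, Plin2 and Me1. With relative log expression or upper-quartile scaling, with limma-voom, without any 1 adipose library or without marrow HFD library 23_28, 0 of the 48 genes were called, where limma-voom called 0.0197% of all genes. Plin2 and Me1 were also lost without any 1 of the 4 marrow HFD libraries. Without 1 marrow glutamine library the number called was 4 to 7, with 7 without library 18_20. DESeq2 called 4 of the 48, 1 higher and 3 lower, where it called 15.7% of the genes it gave an adjusted p.

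Between tissues, 7 genes of the set, Fasn and Lipe among them, were higher in adipose under every scaling or tool tried here, and none was lower under all of them. The TMM scaling placed the median of all 15203 genes at 1.43 on the log2 scale (adipose minus marrow), relative log expression at -1.94 and the upper quartile at -0.89, so differences are given relative to that median. With TMM 14 genes were higher in adipose and 5 lower of 48 tested, where 40.5% of all genes were called higher and 11.2% lower. With relative log expression the split was 7 higher and 31 lower (16.2% and 42.9% of all genes), with the upper quartile 7 and 20 (21.2% and 33.8%), and with DESeq2 8 and 18 (22.7% and 41.8%). With limma-voom it was 18 and 0 (26.9% and 2.49%). The 7 genes called higher in adipose by all of these were Fasn, Acaca and Acacb of synthesis, Agpat2 and Lipe of triglyceride handling, and Slc25a20 and Hadhb of oxidation, beside 9.14% of all genes. No gene of the set was called lower by all, beside 2.36% of all genes. Within the glutamine arm 9 genes were higher and 2 lower in adipose with TMM, where 38.6% of all genes were called, 31.5% higher and 7.16% lower. Within the HFD arm 14 were higher and 2 lower, where 43.6% were called, 37.7% higher and 5.91% lower. Cpt2 was called in opposite directions in the arms. Its unshifted difference was 5.20 ± 1.56 in the HFD arm (adjusted p = 0.0139, edgeR) and -4.73 ± 1.36 in the glutamine arm (adjusted p = 0.0103, edgeR). Relative to the median of all genes in the same fit it was 1.81 in the HFD arm and -5.27 in the glutamine arm. In marrow HFD libraries Cpt2 had 4 to 12 counts. The comparisons within 1 arm were fitted with TMM only.

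These 7 genes, of 48 tested, were also the ones whose CPM in adipose lay wholly above marrow, from the same counts as the calls. The tissues did not overlap for 16.2% of all genes tested, so the share of the set was near that of all genes. Fasn had 58.1 to 100.3 CPM in adipose and 0.195 to 0.448 CPM in marrow, 4.69 above the median of all genes on the log2 scale (unshifted 6.11 ± 0.78). Acaca had 33.5 to 89.4 CPM in adipose and 0.0790 to 10.4 CPM in marrow, 3.33 above the median. Acacb, the carboxylase whose product restrains Cpt1 at the mitochondrion, had 2.89 to 16.7 CPM in adipose and 0.0288 to 0.158 CPM in marrow, 4.06 above. Agpat2 had 8.92 to 47.8 CPM in adipose and 0 to 0.143 CPM in marrow, 5.76 above. Lipe had 28.4 to 82.0 CPM in adipose and 0.0962 to 0.501 CPM in marrow, 4.64 above. Slc25a20 had 14.2 to 74.4 CPM in adipose and 0.132 to 0.298 CPM in marrow, 4.45 above, and Hadhb was 4.33 above. For each of the 7, marrow counts other than the 323 counts of Acaca in glutamine library 18_20 were under 100.

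The remaining genes called higher with TMM were Fads2, Gpam, Ppargc1a, Ppara, Acadm, Plin2 and Ech1. Fads2, Gpam and Ppargc1a had 1, 2 and 3 marrow counts in all 9 libraries together. The pooled CPM of adipose over marrow was then 282 for Fads2 (95% counting interval 50.4 to 11165), 351 for Gpam (97.1 to 2904) and 255 for Ppargc1a (87.2 to 1240.2), exact intervals that cover counting error only, and the fitted differences of such genes depend on the prior count. Fads2 itself reached 100 counts in 2 adipose libraries only, and without adipose HFD library 5_11 its difference was 0.75 relative to the median and not called, beside 5.49 with it. Acadm was 1.62 above the median of all genes, Plin2 1.20 and Ech1 0.96, and none of these 3 was called higher under relative log expression. Ech1 was not called without adipose glutamine library 4_6 or 13_15 or adipose HFD library 1_3, 5_11 or 14_17, and was -0.071 without marrow HFD library 5_11.

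The 5 genes lower in adipose with TMM were 4 of triglyceride handling and 1 of oxidation. Dgat2 had 2.16 to 28.2 CPM in adipose and 0.573 to 3148 CPM in marrow, -7.99 relative to the median of all genes. Acsl1, the main acyl-CoA synthetase of fat, had 12.4 to 84.6 CPM in adipose and 0.430 to 1080.2 CPM in marrow, -5.49 relative to that median. Acsl4 had 37.5 to 103 CPM in adipose and 0.844 to 523 CPM in marrow, -4.53 relative to that median, and Acsl5 13.8 to 71.4 CPM in adipose and 0.447 to 508 CPM in marrow, -4.40 relative to that median. Ucp2 had 19.3 to 77.4 CPM in adipose and 0.592 to 484 CPM in marrow, -4.79 relative to that median. In each case all adipose values lay inside the marrow range. Acsl5 was not called without any 1 adipose HFD library, nor without marrow glutamine library 4_6, the unnumbered one or marrow HFD library 5_11. None of the 5 was called by limma-voom. Neutrophil markers were higher in marrow too, by the sums given above, and all 8 were at 100 counts or more in at least 1 marrow library of each arm. In marrow HFD library 23_28, with the highest neutrophil sum, Acsl1 had 1.04 CPM, Acsl4 0.844 CPM, Acsl5 0.447 CPM and Ucp2 0.745 CPM. Dgat2 was at its highest there. In marrow glutamine library 25_27, with the next highest sum at 25599 CPM, Ucp2 was at its highest with 484 CPM. There Dgat2 had 411 CPM, Acsl4 339 CPM, Acsl1 27.6 CPM and Acsl5 26.9 CPM. The part of neutrophils in these differences was not tested.

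**Figure D5:**
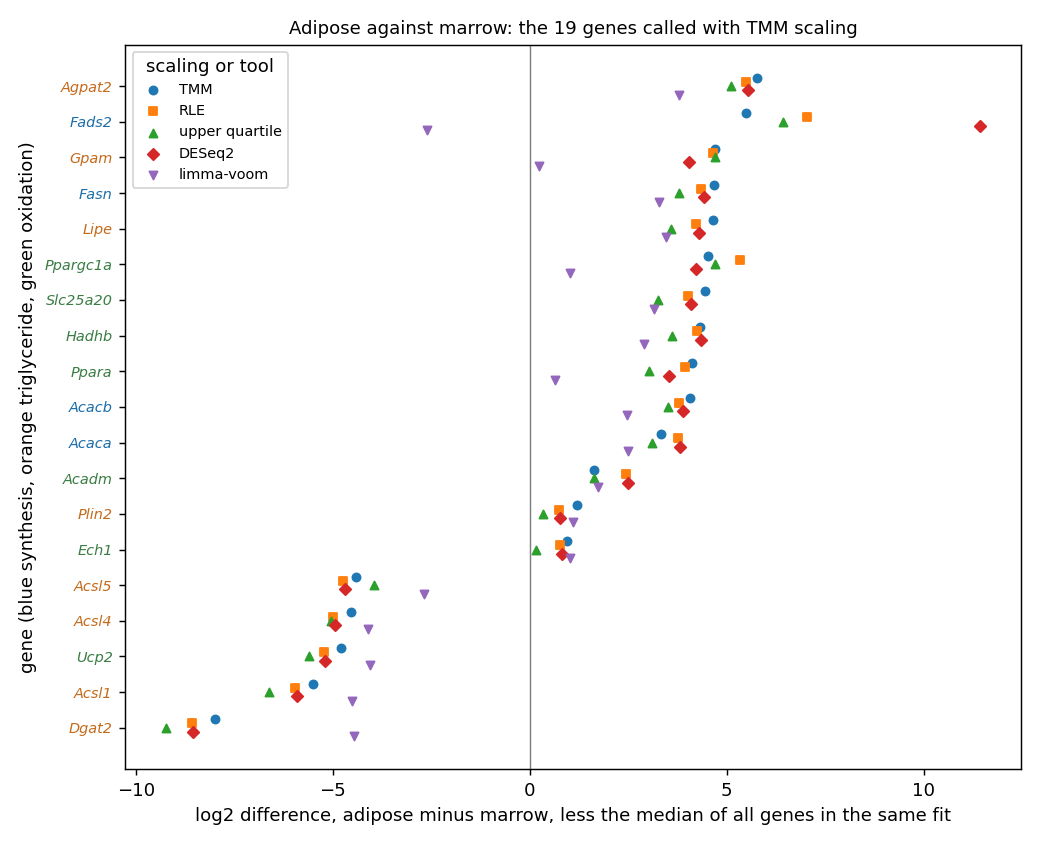
Log2 difference of adipose minus marrow for the 19 genes called with TMM, less the median of all genes in the same fit, under 5 scalings or tools (9 against 9 libraries). Fasn, Acaca, Acacb, Agpat2, Lipe, Slc25a20 and Hadhb keep values above 2 under each, while Fads2 is below 0 with limma-voom and the lower 5 genes are below 0 under each.

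The other genes of the set were measured in all 9 adipose libraries at 100 counts or more and had no call with TMM, between arms or between tissues over both arms. Within the HFD arm Etfa was called higher in adipose, and the counts under other scalings above include some of these genes. In synthesis, the elongases Elovl1 and Elovl5 had 60.7 to 129 CPM and 85.7 to 140.1 CPM in adipose, and 0.250 to 204 CPM and 0.403 to 312 CPM in marrow. In triglyceride handling, the phosphatidate phosphatase Lpin1 had 22.5 to 83.0 CPM in adipose and 0.129 to 198 CPM in marrow. The synthetase Acsl3 had 21.9 to 75.5 CPM in adipose and 0.179 to 115 CPM in marrow, and Abhd5, the activator of Pnpla2, 54.1 to 79.6 CPM in adipose and 0.390 to 395 CPM in marrow. In oxidation, the thiolase Acaa2 was the most abundant of these, with 147 to 288 CPM in adipose and 0.732 to 347 CPM in marrow. The long-chain dehydrogenase Acadl had 59.6 to 97.1 CPM in adipose and 0.473 to 607 CPM in marrow. Hadh, Decr1, Eci1, Etfa and Etfb, enzymes and electron carriers of the same matrix pathway, lay between 15.0 and 147 CPM in adipose and reached 100 counts in 2 to 4 marrow libraries each. The receptor Ppard had 4.01 to 16.6 CPM in adipose and 0 to 214 CPM in marrow. For each of these genes marrow libraries lay both below and above the adipose range.

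A list of 103 other genes of the pathway was set beside the 50. In adipose 83 were tested and 0 called with glutamine, and in marrow 36 were tested and 0 called (edgeR). For the difference of the glutamine effect, 17 of 83 were called, 7 higher and 10 lower in adipose than in marrow, where 11.9% of all genes were called. The lower ones included Insig1, which holds the SREBP complex in the endoplasmic reticulum, at -7.09 ± 2.05, Agpat3 at -7.45 ± 2.08, the peroxisomal thiolase Acaa1a at -8.37 ± 2.13, Echs1 at -7.51 ± 2.22 and G0s2, an inhibitor of Pnpla2, at -7.27 ± 2.24. The higher ones included Gpat3 at 11.25 ± 3.26, Pdk4, the kinase that restrains pyruvate dehydrogenase, at 8.88 ± 2.78, and Eci2 at 6.24 ± 1.95. No gene of any kind was called with relative log expression or the upper quartile. Between tissues 46 of 83 were called with TMM, 41 higher and 5 lower in adipose, beside 51.7% of all genes. With relative log expression 18 were higher and 28 lower. The largest relative differences were those of Usf1 and Mcat in synthesis, 6.79 and 5.60 above the median, Pnpla3 at 6.71 and Lpin2 at -5.32 in triglyceride handling, and Ehhadh at 7.48 and Ppargc1b at -7.43 in oxidation. Usf1, Pnpla3 and Ehhadh were listed at 0 in all 9 marrow libraries and reached at most 6.65 CPM in adipose, so their fitted values depend on the prior count.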

How the data were processed

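RNA of 18 libraries was measured by 3′ tag sequencing (QuantSeq), which, per the labels' protocols, started from 30 ng of RNA and used read 1 only. The authors deposited whole-number counts per gene, 1 table per tissue. The submitters' processing notes name the build GRCm38, HTSeq 0.11.3, STAR 2.7.10b and FastQC 0.12.1. The release of the annotation, the strand setting and duplicate handling were not stated by the labels. Hence overlapping and antisense genes cannot be told apart. Columns were matched to samples by their titles. The numbers of 1 marrow glutamine column matched no title, so it was used by its group only and is called unnumbered.

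Libraries held 13970788 to 59529238 counts. CPM are counts per 1000000 of these totals, computed here. Low genes were removed with filterByExpr, libraries were scaled by TMM, and groups were compared with edgeR 4.0.16 (quasi-likelihood F test, R 4.3.3), per tissue for glutamine and over all 18 libraries for tissue and for the difference of the glutamine effect. P-values were adjusted by Benjamini-Hochberg over all genes tested, with calls under 0.05. Standard errors are the size of the log2 change over the root of F. Alternatives were DESeq2 1.42.0, limma 3.58.1 (voom), other scalings and filters, and leaving out each library. The fits were tested on simulated counts with known changes and the same spread for every gene (dispersion 0.1). That setting lacks the split of marrow values into near 0 and high, so it does not show how the fits perform on marrow. Counting intervals are exact, at 95%, and cover counting error only.

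The members and lists were chosen with earlier results of these data known. Genes given in full were a panel of 25, those called for glutamine or its difference, the 2 with the smallest p per role and tissue, and the 3 with the largest called tissue differences per role and direction. Other pathway genes were named where called or among the 2 largest tissue differences per role. Coordinates are those of GENCODE M21 on GRCm38, 1-based.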

Additional observations from a re-analysis of the deposited data

Results flagged for a closer look

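Each group of 4 or 5 libraries was searched for a library far from the others on log2(CPM + 1), over 34 genes and 135 groups, of which 26 held one. In 8 of the 26 every other library was at 0, which fixes the outcome, and in 7 of these 8 the library held 1 to 3 counts, no more than a count of 0 allows. Of the 127 groups with at least 2 libraries above 0, 18 held a library far from the others. A chance rate of about 1 in 20 groups assumes normally distributed values and genes not chosen by these data. Some of the genes were chosen by their values here and marrow values are split, so the 18 cannot be set against that rate. Of the 26, 24 were in marrow, where most genes are near 0 in some libraries and high in others, and values here are the CPM of the library that stood apart.

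Among marrow glutamine libraries, library 18_20 stood apart high for Acaca (10.4 CPM), Acadm (39.6 CPM), Srebf1 (4.14 CPM), Hadhb (1.09 CPM) and Ppargc1a (0.0321 CPM). It also had the most genes at 100 counts or more. Library 25_27 stood apart for Elovl6 (363 CPM) and Pnpla2 (153 CPM). Library 10_12 did so for Lipe (0.501 CPM), Gpam (0.0716 CPM) and Ppara (0.0716 CPM), and library 4_6 for Fads2 (0.0430 CPM). The unnumbered library was the low one for Ucp2 (0.592 CPM).

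Among marrow HFD libraries, library 1_3 stood apart high for Pnpla2 (168 CPM), Scd2 (59.1 CPM), Acadvl (18.4 CPM), Lipe (0.421 CPM), Acacb (0.158 CPM) and Gpam (0.0263 CPM). Library 14_17 did so for Acads (229 CPM) and Ech1 (8.64 CPM), library 5_11 for Etfdh (52.2 CPM), and library 23_28 for Fads1 (521 CPM), Ppara (0.149 CPM) and Ppargc1a (0.0993 CPM). In adipose, HFD library 5_11 stood apart for Acly (293 CPM) and Fads2 (7.42 CPM).

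The glutamine effect in adipose minus that in marrow passed the edgeR interaction test for Cpt2 (-9.92), Me1 (-7.76) and Plin2 (-6.62, log2 scale). Values above 1000 counts in some marrow glutamine libraries stood beside values under 50 counts in all marrow HFD libraries for each.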

How the results depend on the processing

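No gene of the set was called for glutamine in adipose under any alternative, leaving out each library included (0 to 0). In marrow, 0 were called without any 1 library (0 to 0), 6 in 1 fit of all 18 libraries and 5 with DESeq2. For the difference of the effect, 3 genes in the design used here became 0 with limma-voom, relative log expression, the upper quartile, the replicate block and the same 16 libraries with no block, and 0 to 7 with 1 library left out. Between tissues, 19 called genes became 38 with relative log expression and 16 to 24 with 1 library left out. Same-numbered libraries of both tissues correlated at -0.007 to 0.025 in their deviations, under the 0.1 asked of a pairing. The labels do not say whether a number pair marks the same mice in both tissues, and the correlations do not settle it. Between tissues the block gave 20 genes higher and 0 lower in adipose (48.4% and 2.23% of all genes), against 12 and 4 in the same 16 libraries with no block (38.7% and 9.81%), so no gene of the set was called lower with it.

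Estimates that changed sign in adipose were small: Acaca (0.032 limma-voom, 0.0076 strict filter, 0.060 upper quartile), Cpt2 (0.11), Scd1 (-0.013) and Ucp2 (0.032) with limma-voom, Elovl6 (-0.10), Fads1 (-0.16) and Fasn (-0.17) in 1 fit of all 18 libraries, and Hadha (0.031, upper quartile). With 1 adipose library left out the log2 change ranged from -0.28 to 0.13 for Acaca, -0.95 to 0.10 for Acsl1, -0.0014 to 0.49 for Cpt1a, -0.38 to 0.10 for Cpt2, -0.066 to 0.43 for Dgat1, -0.13 to 0.39 for Elovl6, -0.083 to 0.24 for Fads1, -0.061 to 0.15 for Fasn, -0.20 to 0.21 for Hadha, -0.44 to 0.054 for Plin2, -2.29 to 0.15 for Ppargc1a, -0.073 to 0.51 for Scd1 and -0.49 to 0.11 for Ucp2. In marrow the ranges were -9.23 to 1.52 for Dgat2, -6.12 to 5.40 for Fads1 and -5.32 to 2.41 for Hadha. Without both marrow libraries with the fewest genes (the unnumbered glutamine one and HFD 23_28) these were 1.81, 5.71 and 2.696, and Fads1 was 0.041 with limma-voom. Between tissues, relative to the median of all genes, Ech1 was -0.65 and Plin2 -0.92 with the replicate block, Fads2 -2.60 with limma-voom, and Ech1 ranged from -0.071 to 1.60 with 1 library left out. The cause was not tested. In marrow, 0 of the 31 genes tested had an interval of 2 standard errors within a 2-fold change.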
